A study of Rattus norvegicus with 30 samples.

Results

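A set of 8 marker genes of inhibitory neurons and neuropeptide cells was followed in RNA sequencing libraries of 30 adult male Sprague-Dawley rats, 1 library per rat. They are 8 of the 32552 genes in the deposited count tables and were taken by Ensembl identifier. An identifier was kept only if the tables placed it on the expected chromosome, and all 8 were kept. All rats were wild type and lived through the same schedule of 21 days of training followed by 8 days in which foot-shocks were given to all but the control group. CT rats (n = 7) worked for saline and were never shocked. The methamphetamine (METH) rats were divided by what punishment did to their lever pressing, into shock-resistant rats that went on pressing (SR, n = 7) and shock-sensitive rats that pressed less (SS, n = 6). YSR (n = 5) and YSS (n = 5) rats worked for saline and were yoked, so that each was shocked whenever its SR or SS partner was. SR and SS are outcomes of the rats' own behavior, not assigned treatments, and METH intake and shock number differ together between them. The partner of each yoked rat is not in the labels used here, so the rats were compared as groups.

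The tissue field of the labels names the dorsal striatum, whereas the dissection protocol and the methods name the hippocampus, and the time between the last session and dissection also differs between these sources. Markers of the 2 regions could not be read because the tables carry no gene symbols and 0 of the 32552 identifiers matched the gene table at hand. The tissue is therefore called hippocampus as in the protocol, without a check of its identity. The symbols of the 8 genes come from the list of identifiers by which they were chosen.

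GABA, the main inhibitory transmitter of the forebrain, is made from glutamate by the enzymes GAD67 (Gad1) and GAD65 (Gad2), which nearly all inhibitory neurons of the hippocampus carry. These neurons fall into classes that are recognized by the peptides they release (somatostatin, Sst; neuropeptide Y, Npy; vasoactive intestinal peptide, Vip; cholecystokinin, Cck) or by the calcium-binding proteins they contain (parvalbumin, Pvalb; calretinin, Calb2). Parvalbumin cells target the soma and axon initial segment of pyramidal cells, somatostatin cells target dendrites, and many Vip and calretinin cells target other interneurons. Cck is also transcribed in pyramidal cells, so its level does not belong to interneurons alone.

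Somatostatin and Vip are textbook targets of the cyclic AMP response element (CRE), and their start-site regions are shown because these genes are the 2 peptide genes that varied together most closely across the rats. The sequences are the RefSeq windows of build GRCr8, each 300 bases long with 250 bases before and 50 after the annotated start of the gene, on the + strand at chr11:90461296-90461595 for Sst and chr1:44470230-44470529 for Vip. Capitals mark the CRE letters, TGACGTCA in Sst and its first 7 letters, TGACGTC, in Vip.
Sst: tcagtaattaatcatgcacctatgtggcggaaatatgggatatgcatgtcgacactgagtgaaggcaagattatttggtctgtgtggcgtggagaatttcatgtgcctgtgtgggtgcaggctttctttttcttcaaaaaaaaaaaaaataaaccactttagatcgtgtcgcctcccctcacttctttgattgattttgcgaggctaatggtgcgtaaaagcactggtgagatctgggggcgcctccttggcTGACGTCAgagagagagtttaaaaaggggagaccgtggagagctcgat
Vip: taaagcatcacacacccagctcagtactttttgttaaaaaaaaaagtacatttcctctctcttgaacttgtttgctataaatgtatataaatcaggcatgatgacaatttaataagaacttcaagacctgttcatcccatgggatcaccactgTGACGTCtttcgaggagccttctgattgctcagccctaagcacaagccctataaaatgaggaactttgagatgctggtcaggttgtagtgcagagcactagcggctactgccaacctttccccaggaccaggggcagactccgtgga
In Sst the full motif begins at base 253 of the window, which is 2 bases after the annotated start. In Vip the 7 letters begin at base 154, which is 97 bases before the annotated start, and the full 8 letters are not in the window. Both strands were searched, and the 7 letters are part of the 8, so the palindrome in Sst holds the shorter motif on each strand. Of 33469 windows of the same length in the RefSeq table, 612 (1.83%) held TGACGTCA and 1078 (3.22%) held TGACGTC. The windows of Gad1, Gad2, Npy and Pvalb held neither. Windows for Cck and Calb2 were not analysed here. A motif in a window is a description of its letters and not evidence that a factor was bound there.

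Total counts per library lay between 14584340 and 19997820 (median 17396700). The sample titles also carry the code XII or XIII, read here as a cohort, and a letter L or R that no source explains. Cohort XII supplied 11 of the 30 rats, namely 1 CT rat, 4 SR rats, 2 SS rats, 3 YSR rats and 1 YSS rat, so cohort and group are partly mixed. Of the 8 genes, 7 passed edgeR's filter on low counts together with 15790 other genes, and Npy did not. Levels are given as CPM, that is, counts scaled to library size after TMM normalization. Tests are edgeR's quasi-likelihood test over all 15797 genes, with the 5 groups as the only factor. In bulk tissue, fewer cells of a type and less RNA per cell cannot be told apart.

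**Figure D1:**
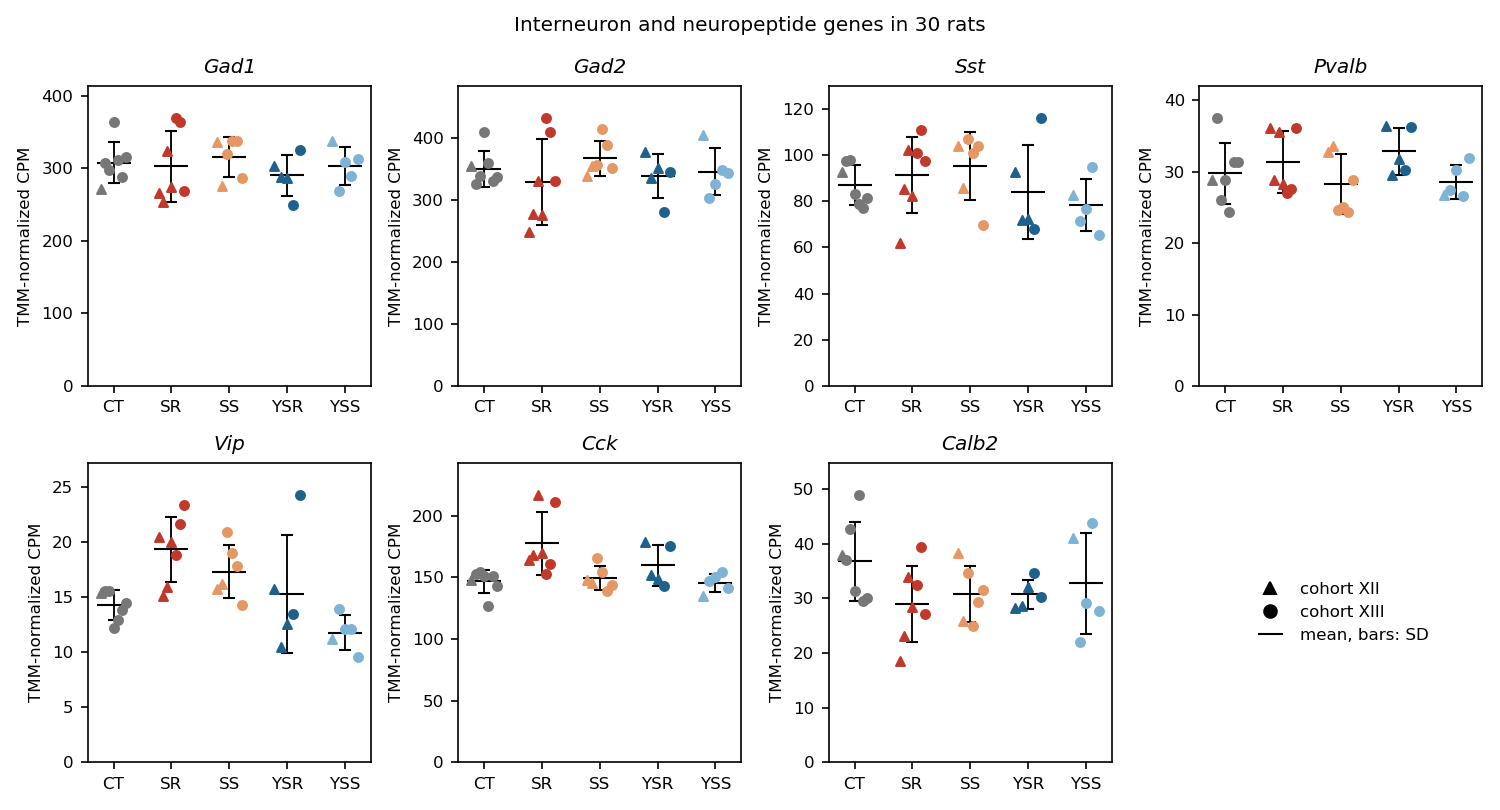
TMM-normalized CPM (vertical axes, from 0) of the 7 genes that passed the filter, by group (horizontal axes). Each point is 1 rat, triangles are cohort XII and circles cohort XIII, long lines are group means and bars are SD. Vip is higher in SR and SS rats than in most CT and YSS rats, Cck is highest in SR rats, and the groups lie on each other for Gad1 and Gad2.

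Per length of transcript, Cck and Sst were the most abundant of the 7 genes that passed the filter. Over the 30 libraries, RPKM (CPM per kilobase of exon) were 158 ± 19.7 (SD, n = 30) for Cck and 143 ± 23.9 for Sst. Gad1 followed with 78.7 ± 8.41, Gad2 with 62.2 ± 7.79 and Pvalb with 56.1 ± 7.39 RPKM. Calb2, at 21.5 ± 4.58, and Vip, at 8.56 ± 2.05 RPKM, were the lowest of the 7. In this order the ranges over rats overlapped between Cck and Sst, between Gad1 and Gad2, between Gad2 and Pvalb, and narrowly between Calb2 (lowest 12.4) and Vip (highest 13.1). They did not overlap between Sst (lowest 101) and Gad1 (highest 95.3), or between Pvalb (lowest 45.2) and Calb2 (highest 32.8).

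The spread between rats of the same group was largest for Calb2, with an SD of 0.302 log2 units, followed by Vip (0.253) and Sst (0.243). Gad2 (0.187), Pvalb (0.182) and Gad1 (0.160) varied less, and Cck least (0.133). The median over all genes tested was 0.151. Vip was read from 168 to 487 counts per library, and its coefficient of variation over the 30 libraries was 24% where counting alone would give 6%. For the remaining 6 genes counting error was smaller, between 1.28% and 4.35%.

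The Npy row stood near 0 in every library. It held 1 to 4 counts in CT rats, 0 to 5 in SR rats, 0 to 5 in SS rats, and 2, 3, 1, 1 and 0 counts in the 5 YSR rats. The YSS rats had 1, 1, 11, 1 and 3 counts. A median of 2 counts per library is below the 3 counts taken here as the floor of detection, and no comparison of Npy between groups was made. The tables place Npy (ENSRNOG00000009768) on chromosome 4 from 79557854 to 79565097 on the + strand. They place a second gene, ENSRNOG00000046449, on the same strand from 79573998 to 79581208, which begins 16144 bases after the start of the first. Both have 4 exons, the inner exons measure 188 and 81 bases in each, and the spacing of exon starts is 890, 4280 and 1834 bases in one and 900, 4279 and 1834 bases in the other. The second gene held 0 to 3 counts per library. How the counting treated reads that match more than 1 place is not given in the sources used here, and the part of such reads in the low counts was not tested, so the transcript level of Npy cannot be read from these rows.

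**Figure D2:**
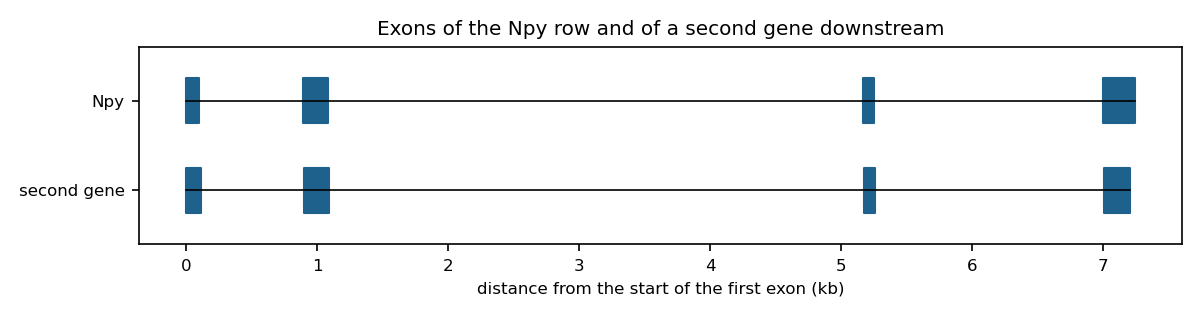
Exons (boxes) of the Npy row and of a second gene downstream of it, drawn to scale by the distance in kb from the start of the first exon of each (horizontal axis). The inner exons have the same lengths, 188 and 81 bases, and nearly the same spacing in both.

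Of the 56 tests of the 7 genes in the 8 pairwise comparisons, 0 passed a threshold of 0.05 after Benjamini-Hochberg adjustment in edgeR, and 0 in DESeq2. Before adjustment, 10 of the 56 were under 0.05 in edgeR and 10 in DESeq2, and all but 2 of these were for Vip or Cck. These 2 were Calb2 in SR vs. CT and Sst in SS vs. YSS. At that threshold between 3.29% (YSR vs. YSS) and 10.5% (SR vs. CT) of all genes passed, depending on the comparison. The adjusted threshold was passed by few genes of any kind, with 0% of all genes tested in each of SR vs. CT, SR vs. SS, SS vs. YSS and YSR vs. YSS, 0.0253% in SR vs. YSR, 0.0823% in YSS vs. CT, 0.101% in SS vs. CT and 0.12% in YSR vs. CT. The median log2 difference of the 7 genes was highest in YSR vs. YSS, at 0.105 against 0.005 for all genes. It was 0.073 in SR vs. CT and 0.06 for SS rats against YSS rats, where that of all genes was 0.003 and 0.005, and it was lowest in SR vs. SS (-0.058, against -0.001 for all genes) and YSS vs. CT (-0.056, against -0.002). In YSS vs. CT none of the 7 had a positive difference, whereas 5 of 7 had in both comparisons of SS rats with saline groups. In a single test over all 5 groups, Vip had the smallest p-value of the 7 genes (F = 7.24, unadjusted p = 0.000314, rank 36 of 15797 genes) and Cck the next (F = 6.1, unadjusted p = 0.000982, rank 58). In edgeR neither passed after adjustment (adjusted p = 0.138 and 0.267), where 0.171% of all genes did and 7.32% passed before adjustment. With the likelihood-ratio test of DESeq2 both passed (adjusted p = 0.0053 for Vip and 0.0394 for Cck), as did 0.361% of all genes. In the remaining 5 genes the 5-group p-value of edgeR was 0.203 or higher before adjustment.

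**Figure D3:**
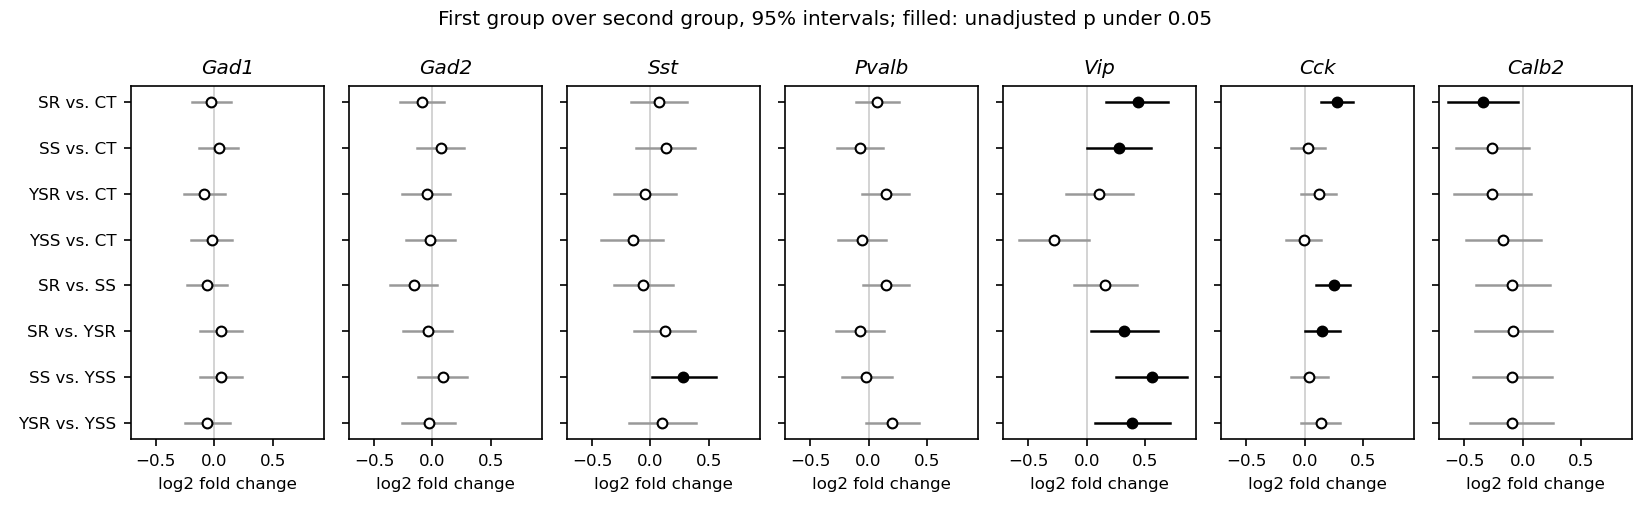
Log2 fold change of the first over the second group (horizontal axes, with 95% intervals from edgeR) for the 7 genes in the 8 comparisons (vertical axis). Filled points are those under 0.05 before adjustment, and after it no test was. Vip holds 5 of the 10 filled points and Cck 3.

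Mean Vip was highest in the 2 groups that took METH. Vip lay between 15.1 and 23.4 CPM in SR rats (median 20) and between 14.3 and 20.9 in SS rats (median 17). In CT rats it lay between 12.2 and 15.6 CPM (median 14.5). The 5 YSS rats had 13.9, 12.1, 12.1, 9.55 and 11.2 CPM, and the 5 YSR rats had 13.5, 24.3, 15.7, 10.5 and 12.6. The YSS rats were thus all below every SS rat, while the YSR group held both 1 of the lowest values and the highest of the 30, that of XIII-R10. Against its own yoked group, Vip in SS rats was 1.47-fold that of YSS rats, with a log2 difference of 0.56 (SE 0.15, unadjusted p = 0.000779, adjusted p = 0.995 in edgeR). The 6 SS and 5 YSS rats did not overlap (exact two-sided permutation test, p = 0.00433), and 4.27% of all genes passed the unadjusted threshold of edgeR in this comparison. The share of all genes without overlap between these groups is not given here, so the lack of overlap has no background beside it. In SR vs. YSR the log2 difference was 0.32 (SE 0.14, unadjusted p = 0.0292, adjusted p = 0.53 in edgeR), the groups overlapped (exact permutation test, p = 0.0922), and 8.17% of all genes passed. The SR vs. YSR difference depended on single rats. It was 0.56 without XIII-R10, and it missed the unadjusted threshold without the YSR rats XII-R06 (0.22), XII-R10 (0.27) or XIII-R08 (0.29) or the SR rat XIII-R09 (0.27). It was 0.28 with the letter L or R as a covariate (unadjusted p = 0.0684 in edgeR), and all 5 YSR rats carry the letter R. The difference between SR vs. YSR and SS vs. YSS was itself tested and was -0.23 log2 units (SE 0.20, unadjusted p = 0.267 in edgeR), and none of the 7 genes passed that test, in which 5.43% of all genes did.

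Against unshocked saline rats, Vip was 1.35-fold in SR rats (log2 difference 0.44, SE 0.13, unadjusted p = 0.00203, adjusted p = 0.288 in edgeR). Of the 7 SR rats, 6 were above every CT rat (exact permutation test, p = 0.00408), and 10.5% of all genes passed the unadjusted threshold in SR vs. CT. In SS rats the log2 difference to CT was 0.28 (SE 0.13, unadjusted p = 0.0486, adjusted p = 0.994 in edgeR; exact permutation test, p = 0.0169), where 5.01% of all genes passed. With the letter L or R as a covariate it was 0.23 (unadjusted p = 0.111 in edgeR). These comparisons share the 7 CT rats and are not independent of each other. Vip in YSS rats was 0.824 times that of CT rats, with a log2 difference of -0.28 (SE 0.15, unadjusted p = 0.0634, adjusted p = 0.98 in edgeR). Of the 5 YSS rats, 4 were below every CT rat (exact permutation test, p = 0.0139). In YSR rats the difference to CT was 0.11 (SE 0.14, adjusted p = 0.877 in edgeR). None of the 7 genes passed the unadjusted threshold of edgeR in YSS vs. CT or YSR vs. CT, where 5.01% and 7.56% of all genes did. SR and SS rats differed by 0.16 log2 units (95% interval -0.11 to 0.43; exact permutation test, p = 0.217).

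A contrast of both METH groups with both yoked groups, added after the data had been seen, gave a log2 difference in Vip of 0.44 (SE 0.10, unadjusted p = 0.00017, adjusted p = 0.203 in edgeR; permutation test, p = 0.0015). It was 0.48 within cohort XII and 0.38 within cohort XIII. In this contrast 7.48% of all genes passed the unadjusted threshold. Between the yoked groups, the difference of 0.39 log2 units in YSR vs. YSS was 0.15 without XIII-R10 (unadjusted p = 0.246 in edgeR, against 0.0175 with it), and 3.29% of all genes passed there. Vip was also 0.22 log2 units higher in cohort XIII than in cohort XII (SE 0.09, unadjusted p = 0.0249, adjusted p = 0.231 in edgeR), the only one of the 7 genes past an unadjusted threshold that 16.4% of all genes passed (0.481% after adjustment). Within cohort XIII alone, the log2 difference was 0.60 for SR rats and 0.35 for SS rats against CT rats, 0.17 in SR vs. YSR and 0.59 in SS vs. YSS. Cohort XII held 1 CT and 1 YSS rat, so of these 4 comparisons SR vs. YSR alone had 2 or more rats on each side there, with a difference of 0.46.

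Mean Cck was highest in SR rats, at 177 ± 25.5 CPM (SD, n = 7). It ranged from 153 to 217 CPM there (median 168), from 127 to 154 in CT rats (median 151), and from 139 to 166 in SS rats (median 147). The 5 YSR rats had 143, 175, 179, 152 and 149 CPM, and the 5 YSS rats had 147, 150, 154, 141 and 135. The SR rats XIII-R09 and XII-R05, at 211 and 217 CPM, were above all other rats, and the other 5 SR rats lay between 153 and 170. Cck in SR rats was 1.21-fold that of CT rats, a log2 difference of 0.28 (SE 0.07, unadjusted p = 0.000289, adjusted p = 0.241 in edgeR, adjusted p = 0.0604 in DESeq2), with 6 of the 7 SR rats above every CT rat (exact permutation test, p = 0.00175). Within cohort XIII alone the difference was 0.26. Against SS rats, which took METH too, it was 1.19-fold, a log2 difference of 0.25 (SE 0.07, unadjusted p = 0.00132, adjusted p = 0.402 in edgeR). There, 4 of the 7 SR rats were above every SS rat (exact permutation test, p = 0.0122), and 7.46% of all genes passed the unadjusted threshold. Within cohorts this difference was 0.21 in cohort XIII and 0.30 in cohort XII. Against YSR rats the difference was 0.15 (SE 0.07, unadjusted p = 0.047, adjusted p = 0.606 in edgeR; exact permutation test, p = 0.196), it was 0.10 without either XIII-R09 or XII-R05, and with the letter L or R as a covariate it was 0.16 (unadjusted p = 0.0558 in edgeR). In SS rats Cck differed from CT rats by 0.03 log2 units (95% interval -0.12 to 0.17) and from YSS rats by 0.04 (95% interval -0.12 to 0.20).

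Somatostatin was 95.3 ± 14.6 CPM (SD, n = 6) in SS rats and 78.2 ± 11.3 (SD, n = 5) in YSS rats. The SS rats lay between 69.9 and 107 CPM (median 103), and the YSS rats had 71.4, 76.7, 94.9, 65.4 and 82.8, so that the groups overlapped. The log2 difference was 0.28 (SE 0.13, unadjusted p = 0.0432, adjusted p = 0.995 in edgeR; exact permutation test, p = 0.0779). SR rats ranged from 61.9 to 111 CPM (median 97.6) and CT rats from 77.2 to 97.8 (median 83.3). The YSR rats had 67.8, 116, 92.5, 71.9 and 72.1 CPM, and the highest of these, again XIII-R10, was the highest of all 30 rats. In SR vs. CT the log2 difference was 0.07 (95% interval -0.17 to 0.31) and in SR vs. YSR 0.12 (-0.14 to 0.38). Over both METH groups against both yoked groups it was 0.20 (SE 0.09, unadjusted p = 0.0387, adjusted p = 0.643 in edgeR; permutation test, p = 0.0752). With the letter L or R as a covariate neither Sst result passed the unadjusted threshold (0.27 in SS vs. YSS, unadjusted p = 0.0514, and 0.17 in METH vs. yoked, unadjusted p = 0.0776, both in edgeR).

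Calretinin was the 1 gene of the 7 whose only unadjusted passage was downward. Calb2 lay between 29.6 and 49 CPM in CT rats (median 37.1) and between 18.5 and 39.5 in SR rats (median 28.4), with overlap. The log2 difference in SR vs. CT was -0.34 (SE 0.15, unadjusted p = 0.0258, adjusted p = 0.421 in edgeR; exact permutation test, p = 0.0583). SS rats ranged from 25 to 38.4 CPM (median 30.5), the YSR rats had 34.6, 30.3, 28.2, 28.6 and 32.1, and the YSS rats had 22, 29.2, 43.8, 27.7 and 41.1. All 4 groups thus had lower means than the 36.8 CPM of CT rats, with log2 differences of -0.26 in SS rats, -0.26 in YSR rats and -0.17 in YSS rats, none of them past the unadjusted threshold. Within cohort XIII the difference in SR vs. CT was -0.15.

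Parvalbumin did not pass in any comparison. Group means were 29.8 ± 4.29 CPM in CT rats (SD, n = 7), 31.3 ± 4.31 in SR rats (SD, n = 7), 28.2 ± 4.19 in SS rats (SD, n = 6), 32.9 ± 3.29 in YSR rats (SD, n = 5) and 28.6 ± 2.33 in YSS rats (SD, n = 5). Its largest log2 difference was 0.20 in YSR vs. YSS (95% interval -0.02 to 0.43), where the exact permutation test gave p = 0.0635.

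The GABA-synthesizing enzymes did not pass in any comparison either. Gad1 means lay between 290 CPM in YSR rats and 316 in SS rats, and Gad2 means between 329 in SR rats and 368 in SS rats. For Gad1 the interval of the log2 difference in SR vs. SS was -0.23 to 0.11, and for Gad2 it was -0.36 to 0.04. The SR rats were the most spread of the 5 groups for both enzymes, from 253 to 369 CPM in Gad1 and from 248 to 432 in Gad2. The ratio of Gad1 to Gad2 CPM averaged 0.884 over the 30 rats (0.767 to 1.07), and its group means ran from 0.86 in SS rats to 0.93 in SR rats. Relative to the mean of both enzymes in the same library, Vip stood at a log2 ratio of -4.51 ± 0.24 in CT rats (SD, n = 7), -4.01 ± 0.32 in SR rats (SD, n = 7) and -4.30 ± 0.16 in SS rats (SD, n = 6). It stood at -4.40 ± 0.41 in YSR rats and -4.77 ± 0.30 in YSS rats (SD, n = 5 each), so the order of the groups on this scale was that of the Vip levels themselves.

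Across the 30 rats, the genes varied in pairs more than as 1 block. Of the 21 pairs, 6 had a Pearson correlation of log2 CPM with an adjusted permutation p under 0.05, all of them positive, and 9 of the 21 coefficients were negative. Gad1 and Gad2 were the closest pair (r = 0.79, permutation p = 1e-05, the smallest that the 100000 permutations can give, adjusted p = 0.00021; Spearman rho = 0.71). Among all genes tested, none had a correlation with either enzyme as high as the other enzyme had. The coefficient was 0.63 in cohort XII (n = 11) and 0.90 in cohort XIII (n = 19). Without the 2 rats farthest from the median of Gad1 it was 0.74.

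**Figure D4:**
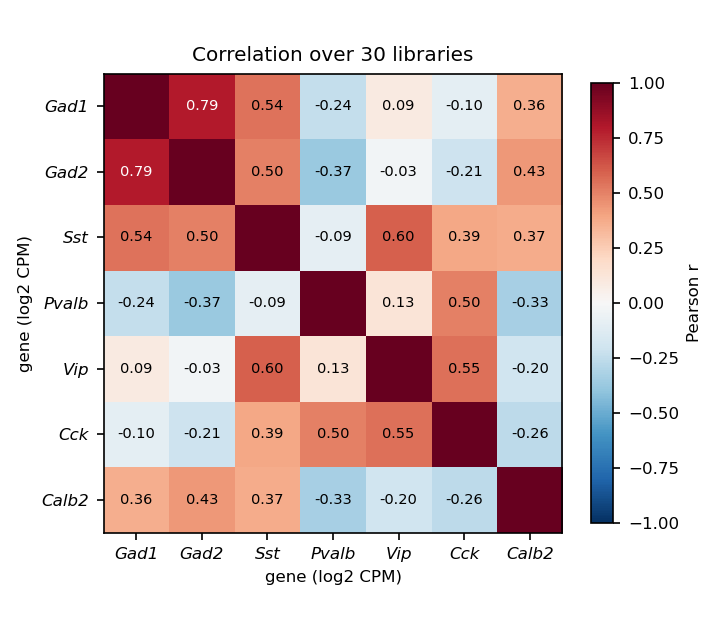
Pearson correlation of log2 CPM between 7 genes over 30 libraries (color and printed value, from -1 to 1; both axes list the genes). Gad1, Gad2 and Sst form 1 group of positive values, and Calb2 has lower positive values with each of them. Vip with Sst and with Cck form another, and Pvalb with Cck has 0.50.

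Somatostatin varied with both enzymes and with Vip. Its r was 0.54 with Gad1 (adjusted permutation p = 0.0126, rho = 0.56) and 0.50 with Gad2 (adjusted permutation p = 0.0174, rho = 0.44). The first was 0.51 and the second 0.36 without the 2 rats farthest from the median of the enzyme, so that the relation with Gad2 rested partly on those 2 rats. The first was 0.51 and 0.53 within cohorts XII and XIII, and the second 0.44 and 0.52. Without the SR rat XII-L05, which had the lowest Sst and the lowest Gad2 of all 30 rats, the second was 0.06 in cohort XII. With Vip, Sst had r = 0.60 (adjusted permutation p = 0.00577, rho = 0.64), and only 0.272% of all genes had as high a correlation with Vip. This relation was 0.81 in cohort XIII and 0.04 in cohort XII. The second value turned on the same rat, since it was 0.54 without XII-L05 (n = 10), and it lay between -0.19 and 0.54 when each rat of that cohort was left out in turn, against 0.77 to 0.87 in cohort XIII. A difference between the cohorts was not tested. With the enzymes, the pooled r of Vip was 0.09 (Gad1) and -0.03 (Gad2), but the signs were opposite in the cohorts. In cohort XII it was -0.37 with Gad1 and -0.66 with Gad2, and in cohort XIII it was 0.25 and 0.30. After the group means were taken out, Sst and Vip still had r = 0.56 (adjusted permutation p = 0.0315). Their pooled r of 0.60 was 0.72 without the 2 rats farthest from the median of Sst, but 0.48 without the 2 farthest from that of Vip.

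**Figure D5:**
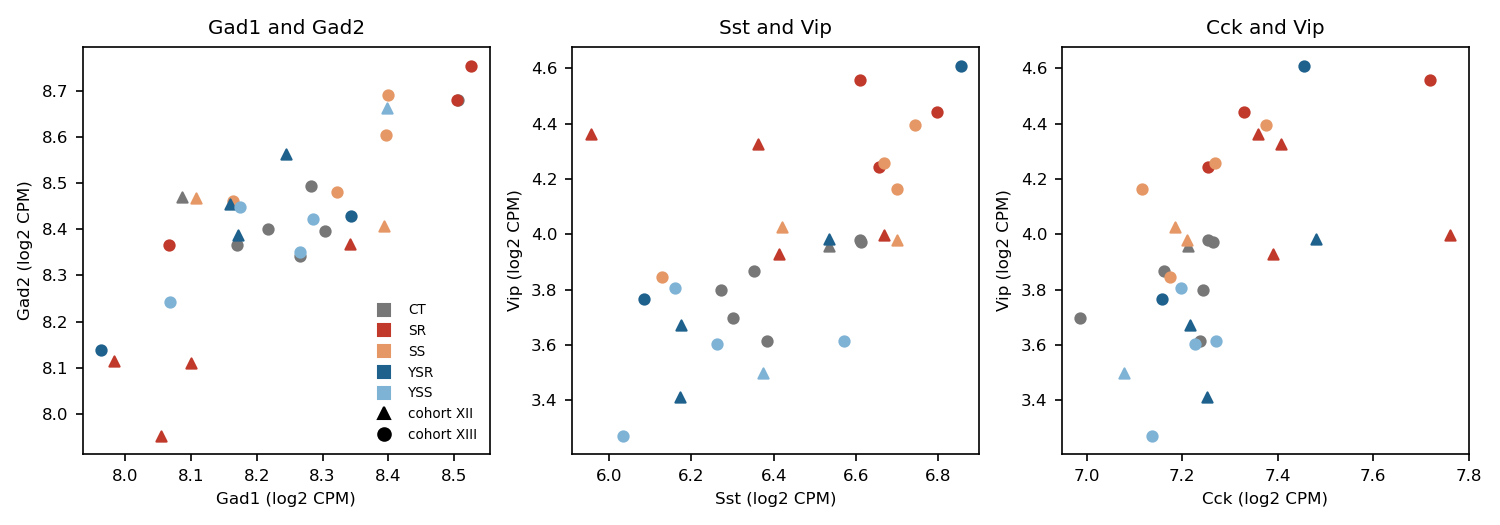
Log2 CPM of Gad1 against Gad2, Sst against Vip and Cck against Vip, 1 point per rat, with colors for the groups and triangles for cohort XII. In the middle plot the cohort XIII circles rise together (r = 0.81), and the cohort XII triangles have r = 0.04 with, and 0.54 without, the SR rat XII-L05 at the far left; in the left plot a CT and an SR rat coincide near the top.

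Vip and Cck had r = 0.55 (adjusted permutation p = 0.01, rho = 0.59), with 0.42 in cohort XII, 0.68 in cohort XIII and 0.51 without the 2 rats farthest from the median of Vip. Both genes were highest in SR rats, and with the group means taken out r was 0.36 (permutation p = 0.0968, adjusted 0.185). Pvalb and Cck had r = 0.50 (adjusted permutation p = 0.0174), with a rho of only 0.28 (permutation p = 0.13), and with 0.51 in cohort XII and 0.46 in cohort XIII. This r was 0.51 without the 2 rats farthest from the median of Pvalb, but 0.36 without the 2 farthest from that of Cck. With the group means taken out it was 0.46 (adjusted permutation p = 0.0685). Calb2 had r = 0.36 with Gad1, 0.43 with Gad2 and 0.37 with Sst (adjusted permutation p = 0.0903, 0.0522 and 0.0903). With the group means taken out, Calb2 and Sst had r = 0.50 (adjusted permutation p = 0.0315). The lowest coefficients were between Gad2 and Pvalb (r = -0.37, adjusted permutation p = 0.0903) and between Pvalb and Calb2 (r = -0.33, adjusted permutation p = 0.13). The rat XIII-R10 of the YSR group had rank 1 of 30 in both Sst and Vip, rank 4 in Cck and rank 8 in Gad1. None of the 7 genes followed the first principal component of the 15790 other genes tested, which held 14.7% of their variance, after adjustment (Vip, r = -0.37, permutation p = 0.0435, adjusted 0.305).

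Outside the 8 genes, those most alike in pattern over the 30 libraries are given by identifier, since no name could be matched. They were sought among 14499 genes with a mean of at least 1 CPM. The closest to Vip was ENSRNOG00000060635 on chromosome 3 (r = 0.79, mean 3.78 CPM), to Cck ENSRNOG00000014272 on chromosome 3 (r = 0.78, mean 170 CPM), and to Sst ENSRNOG00000011589 on chromosome 2 (r = 0.81, mean 80 CPM). The closest to Calb2 was ENSRNOG00000007808 on chromosome 4 (r = 0.83, mean 205 CPM) and to Pvalb ENSRNOG00000054838 on chromosome 7 (r = 0.77, mean 67.7 CPM). For Gad1 and Gad2 they were ENSRNOG00000006174 on chromosome 4 (r = 0.76, mean 10.2 CPM) and ENSRNOG00000026490 on chromosome 13 (r = 0.78, mean 56.4 CPM). For Sst, Pvalb, Vip, Cck and Calb2 each of these coefficients is higher than any between 2 of the 7 genes that involves the same gene. Each is the highest found among 14499 genes, a far wider search than that among the 7, so nothing is concluded from the difference.

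The deposited tables give the positions of the other genes as chromosome 3 from 56861396 to 56902157 for Gad1 (ENSRNOG00000000007), chromosome 17 from 89171250 to 89238040 for Gad2 (ENSRNOG00000018200), and chromosome 11 from 80358211 to 80359444 for Sst (ENSRNOG00000001837). Pvalb (ENSRNOG00000006471) lies on chromosome 7 from 119429019 to 119441487, Vip (ENSRNOG00000018808) on chromosome 1 from 42169501 to 42177582, Cck (ENSRNOG00000019321) on chromosome 8 from 130120523 to 130127392, and Calb2 (ENSRNOG00000016977) on chromosome 19 from 41482728 to 41509658. Pvalb and Cck are on the - strand and the others on the + strand. No exon of another gene overlaps an exon of any of the 8. The build of these positions is not given in the sources used here, and they differ from those in GRCr8, which are printed for the promoter windows alone.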

How the data were processed

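RNA was sequenced from 30 rats in 5 groups, as 2x150 paired-end poly(A)-enriched libraries. Per the submitters' processing notes, the authors used bcl2fastq 2.17, Trimmomatic 0.36, STAR 2.5.2b and featureCounts of Subread 1.5.2, and they deposited raw counts of reads per Ensembl gene, 1 table per rat, without normalization. The genome build, annotation release, strand setting and handling of reads with several matches are not given in the sources used here. Groups and cohorts were read from the sample labels. The 8 genes, the tests and the lists were chosen with earlier results of these data known.

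Counts were analysed with edgeR 4.0.16 in R 4.3.3 (TMM normalization, default filter on low counts, which kept 15797 genes, quasi-likelihood test, group as the only factor), with 8 pairwise contrasts, a 5-group test, an interaction and a cohort term. P-values were adjusted over all genes tested by the Benjamini-Hochberg method. Log2 CPM of single genes were also compared by exact two-sided permutation tests of the difference in means over rats. All divisions of the rats into 2 groups were enumerated, also for METH vs. yoked. RPKM are the TMM-normalized CPM per kilobase of the exon length in the deposited tables. Correlations used log2 CPM with a prior count of 2, with 100000 permutations, adjusted over 21 pairs. With 1 library per rat, the spread is that between rats. Depth, between 14584340 and 19997820 counts, sets a floor of 3 counts, and counting error is the only error that floor covers.

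Besides the 8 genes, the 3 genes most alike to each in log2 CPM were found by rule, and the first of each 3 is printed. Alternatives were DESeq2 1.42.0, median-ratio size factors, no filter beyond 1 count, a stricter filter of 10 counts in each library, a covariate for cohort or for the letter L or R, only the rats of cohort XIII, separate fits for each pair of groups, Tukey's test on log2 CPM, and each library left out in turn. For correlations they were size factors, a prior count of 0.5, deviations from group means, each cohort alone, Spearman's rho and leaving out extreme rats. The METH vs. yoked contrast, fits within cohort XII, correlations within a cohort with each rat left out and the ratio to the GAD genes were added after the data were seen. On simulated counts for SR vs. CT over 15668 genes, edgeR recovered a share of 0.899 of 200 genes changed 2-fold, and in a simulated SS vs. CT without change a share of 0.0499 had an unadjusted p-value under 0.05. Changes of the size seen here, at most 1.47-fold (Vip in SS vs. YSS), were not simulated, so the share recovered at such sizes is not known. Marker lists of 114 symbols, in 16 lists, were not analysed here because 0 identifiers matched a symbol. Promoter windows of 6 of the 8 genes came from RefSeq by symbol.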

Additional observations from a re-analysis of the deposited data

Results flagged for a closer look

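In each group of rats, the highest and the lowest level of each of the 8 genes were compared with the rest by the size of the gap. Of 40 such groups of values, 3 had a rat well apart, about 2 of which chance alone would give. Gad2 was high in the CT rat XIII-R05, with 410 CPM (7902 counts) against 325 to 360 in the other CT rats. Cck was low in the CT rat XIII-R06, with 127 CPM (2443 counts) against 143 to 154 in the other CT rats. The Npy row stood at 0.593 CPM (11 counts) in the YSS rat XIII-L06, against 0.0568 to 0.157 in the other YSS rats.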

How the results depend on the processing

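In the 8 comparisons, 0 of the 7 genes passed the adjusted threshold under any of the 8 alternatives run or in any of 30 fits that each left out a rat. At the unadjusted threshold 10 tests passed, against 4 with Tukey's test, whose p-values already allow for the pairs of groups. The count was 7 with the letter L or R as a covariate and 9 with the cohort as a covariate. It was 9 in cohort XIII alone and 7 to 11 with a rat left out. These counts can include tests outside the 10. Cohort XIII alone lost Calb2 in SR vs. CT, Vip and Cck in SR vs. YSR, and Sst in SS vs. YSS, while other tests newly passed. The letter as a covariate lost Vip in SS vs. CT, Vip and Cck in SR vs. YSR, and Sst in SS vs. YSS, and here too the count includes a test outside the 10. In the 5-group test, where 0 genes passed after adjustment, 1 passed with the cohort as a covariate and 2 with DESeq2, and 0 to 1 passed with a rat left out, the 1 arising without the YSR rat XIII-R10; the cause was not tested. Of the correlations, 6 pairs passed after adjustment, against 0 within cohort XII and 3 within cohort XIII, which have fewer rats.

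No direction reversed. In all 30 fits without 1 rat, the unadjusted result was kept for Vip in SR vs. CT (0.38 to 0.49 log2 units) and SS vs. YSS (0.49 to 0.62), and for Cck in SR vs. CT (0.22 to 0.31) and SR vs. SS (0.19 to 0.28). It was lost in 16 of 30 such fits for Vip in SS vs. CT, 15 for Cck in SR vs. YSR, 7 for Sst in SS vs. YSS, 4 for Vip in SR vs. YSR (0.22 to 0.56), 4 for Calb2 in SR vs. CT (-0.43 to -0.26) and 2 for Vip in YSR vs. YSS (0.15 to 0.50). No paired analysis was made because the labels do not say which yoked rat was tied to which METH rat. SR vs. YSR and SS vs. YSS were thus tested as independent groups, although the design tied their rats to each other.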
